A study of Mus musculus with 8 samples.

Results

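The genes described here belong to hepatic glycogen metabolism and gluconeogenesis in the mouse: Gbe1, Gys2, Pygl, Ppp1r3b, Ppp1r3c, Pck1, G6pc, Fbp1, Pcx and Ppargc1a. Every probe set that the array's annotation pairs with exactly 1 of these symbols was taken, which gave 19 of the 22690 probe sets and 9 of the 12393 genes measured. No probe set was paired with Ppp1r3b alone, so 9 of the 10 genes have values. The livers came from 4 TrxR1/Gsr-null and 4 wild-type (WT) mice, female, 4 weeks old and of C57BL/6J background, and each liver was hybridised to 1 Affymetrix 3′ array. The null animals are labelled as lacking TrxR1, the cytosolic thioredoxin reductase encoded by Txnrd1, and Gsr, glutathione reductase, which are enzymes that use NADPH to reduce thioredoxin and glutathione. The labels record no treatment for either group, and tissue was collected late in the morning. The labels give neither the promoter or cell type in which each gene was removed nor the feeding state of the animals. Each value below is a log2 expression value after GCRMA, the authors' normalization. A gene was called different when its adjusted p from limma, over the 7534 genes tested, was below 0.05. The precision is limited by the number of arrays, 4 per group.

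Liver stores glucose as glycogen after meals and releases it between meals. Glycogen synthase (Gys2 in liver) lengthens the chains, the branching enzyme (Gbe1) adds branch points, and phosphorylase (Pygl in liver) breaks the chains down. Ppp1r3b and Ppp1r3c encode subunits that bring protein phosphatase 1 to glycogen, where it activates the synthase and inactivates the phosphorylase. When glycogen runs low, the liver makes new glucose from lactate and amino acids through pyruvate carboxylase (Pcx), cytosolic phosphoenolpyruvate carboxykinase (Pck1), fructose-1,6-bisphosphatase (Fbp1) and the catalytic subunit of glucose-6-phosphatase (G6pc). Ppargc1a encodes PGC-1 alpha, a coactivator that fasting signals induce and that raises transcription of gluconeogenic genes.

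Txnrd1 and Gsr were read first as a check of the labels. Gsr had log2 values of 6.02, 5.89, 5.82 and 6.31 in TrxR1/Gsr-null livers, against 7.03, 7.21, 7.21 and 7.20 in WT livers. The Txnrd1 probe set had 12.07, 12.01, 11.65 and 11.96 in TrxR1/Gsr-null livers, against 9.90, 9.93, 9.88 and 9.56 in WT livers. Gsr was 2.23-fold lower (limma adjusted p = 0.00397) and the measured part of Txnrd1 4.31-fold higher (adjusted p = 0.000115), with no overlap in either, and the deleted segment of neither gene is given, so a probe outside it checks nothing. The interquartile range, the spread of values on an array, was 3.97 and 3.74 log2 units on WT replicates 3 and 4, against 4.31 to 4.44 on the other 6 arrays, so the members' results are also given without these 2 arrays where that ends a call or moves a value. The 3′ control probe set of Actb exceeded its 5′ one by 1.76 on null replicate 3 and by 1.498 and 1.57 on WT replicates 3 and 4, against 1.01 to 1.17 on the other 5 arrays. The part of this in the members' differences was not tested. All 9 measured hepatocyte markers, such as Alb, passed the filter on low values.

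Of the 9 measured genes 4 were called: Gbe1 and Ppp1r3c were higher in TrxR1/Gsr-null liver, and Gys2 and Pck1 were lower. In whole liver, fewer cells of a type and less RNA per cell cannot be told apart. These 4 make 44.4% of the members, against 6.62% of all genes tested. In each direction the count was 2 of 9, against 4.47% of all genes called higher and 2.15% called lower. The same 4 genes had no overlap between the 4 null and the 4 WT values, a state shared by 16.6% of all genes tested. The members were chosen with earlier results of these data known, so no test of these shares is given. The median log2 difference of the 9 genes was -0.12, against 0.10 over all genes tested.

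**Figure D1:**
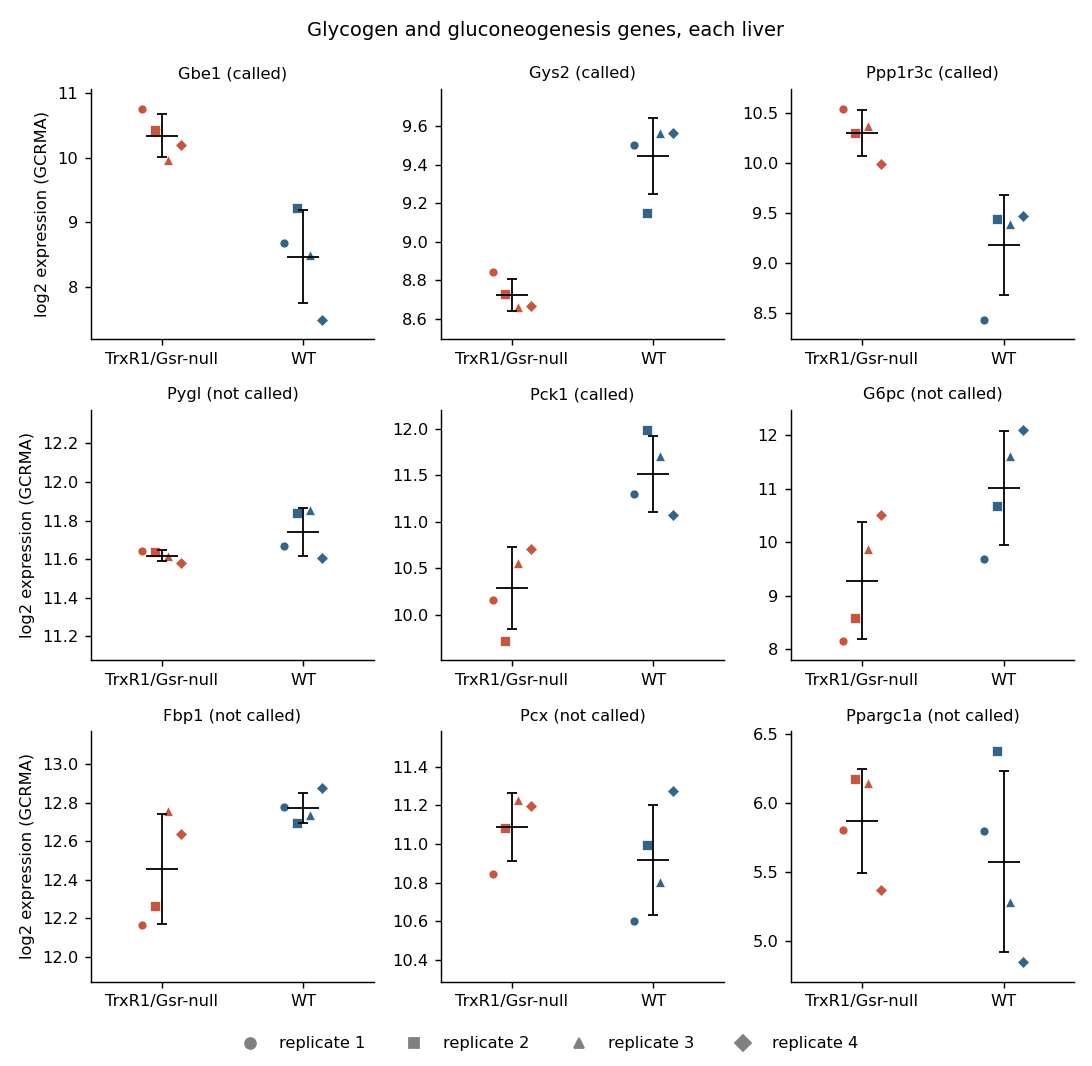
Log2 expression of the 9 measured genes in each liver, TrxR1/Gsr-null on the left and WT on the right of each panel, with each panel on its own vertical axis. Symbols mark the replicate number, the wide bar is the group mean and the whiskers are 1 SD (n = 4). The groups do not overlap for Gbe1, Gys2, Ppp1r3c and Pck1, and G6pc spreads over more than 2 log2 units in each genotype.

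The stretch around the start of transcription is shown for the 4 genes with the largest differences, as a view of the sequence from which they are read. Each line holds 250 bases before and 50 bases from the annotated start, on the strand of the gene, from RefSeq on GRCm38.p6. Capitals mark matches to any of 5 short motifs, searched on both strands: TGACG, the half-site bound by cAMP-responsive factors, CACGTG, the E-box, TGACNNNGC, the core of the antioxidant response element to which Nrf2 binds, TGTTTAC, a FOXO site, and TATAAA, the TATA box.
Gbe1, chr16:70313699-70313998, plus strand: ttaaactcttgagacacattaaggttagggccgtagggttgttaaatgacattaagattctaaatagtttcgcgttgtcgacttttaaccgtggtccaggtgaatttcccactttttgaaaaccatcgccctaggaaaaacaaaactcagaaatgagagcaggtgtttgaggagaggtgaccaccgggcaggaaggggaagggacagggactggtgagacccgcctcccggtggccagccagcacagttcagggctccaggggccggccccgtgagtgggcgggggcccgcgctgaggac
Ppp1r3c, chr19:36736555-36736854, minus strand: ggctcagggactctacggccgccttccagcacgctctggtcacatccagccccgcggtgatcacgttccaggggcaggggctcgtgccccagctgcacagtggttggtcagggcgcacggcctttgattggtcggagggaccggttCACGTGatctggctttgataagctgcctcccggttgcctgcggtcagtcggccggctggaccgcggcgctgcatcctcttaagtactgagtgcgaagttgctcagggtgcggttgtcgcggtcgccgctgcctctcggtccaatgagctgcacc
Pck1, chr2:173152823-173153122, plus strand: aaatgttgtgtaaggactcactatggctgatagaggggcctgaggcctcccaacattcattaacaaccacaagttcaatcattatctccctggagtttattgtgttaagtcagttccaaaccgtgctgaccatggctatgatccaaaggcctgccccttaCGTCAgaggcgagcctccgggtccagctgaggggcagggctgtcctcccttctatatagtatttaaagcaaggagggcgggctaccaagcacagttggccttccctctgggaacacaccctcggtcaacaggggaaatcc
G6pc, chr11:101367466-101367765, plus strand: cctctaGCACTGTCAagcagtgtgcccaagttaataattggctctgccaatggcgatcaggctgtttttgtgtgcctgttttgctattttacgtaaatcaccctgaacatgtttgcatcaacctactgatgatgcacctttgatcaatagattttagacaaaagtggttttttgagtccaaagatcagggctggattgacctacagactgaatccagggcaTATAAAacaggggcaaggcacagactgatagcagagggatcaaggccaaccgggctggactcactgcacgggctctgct
The Gbe1 window holds none of the 5 motifs. The Ppp1r3c window holds an E-box whose first base is at -104 from the start, a motif found in 7.15% of 32851 promoter windows of this length. In Pck1, TGACG on the other strand starts at -90, and 20.8% of windows hold it. The G6pc window has a TATA box at -29, in 13.6% of windows, and an antioxidant response core on the other strand at -244, in 12.4% of windows. TGTTTAC is in 3.65% of all windows and in 0 of the 9 windows of the member genes, which cover 8 genes with 2 starts for Pcx. Gys2 and Ppp1r3b had no entry. No 2 of these motif matches overlap each other. A match of letters is a description and not a binding site, and the absence of these letters from a window says nothing about a factor.

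Gbe1, the glycogen branching enzyme, showed the largest rise among the members. Its log2 values were 10.75, 10.43, 9.97 and 10.20 in TrxR1/Gsr-null livers, against 8.68, 9.21, 8.49 and 7.50 in WT livers. The lowest null liver stood above the highest WT liver, and the WT livers were spread more widely, with replicate 4 lowest. The means were 10.34 ± 0.33 in null and 8.47 ± 0.72 in WT (SD, n = 4 each), a 3.64-fold rise (log2 difference 1.86 ± 0.34 SE, limma adjusted p = 0.00964). Gbe1 was called in all 17 alternative settings tried, with a log2 difference from 1.39 to 2.11. The smallest of these was found without WT replicates 3 and 4 (2.62-fold, adjusted p = 0.0295).

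Ppp1r3c, the glycogen-targeting subunit of protein phosphatase 1 also known as PTG, rose as well. Its brighter probe set had 10.54, 10.30, 10.37 and 9.99 in TrxR1/Gsr-null livers, against 8.43, 9.44, 9.38 and 9.46 in WT livers. All null livers lay above all WT livers, of which replicate 1 lay apart below the other 3. The rise was 2.17-fold (log2 difference 1.12 ± 0.26 SE, adjusted p = 0.0304). The dimmer probe set of Ppp1r3c had 4.36, 4.12, 3.97 and 3.72 in null livers, against 2.55, 3.11, 3.17 and 2.71 in WT livers, with a difference of 1.16 ± 0.21 SE (adjusted p = 0.0125 over all probe sets tested). In WT, 2 of its 4 values were under the low-value limit for probe sets, 3.03, where GCRMA compresses values. The gene's call was lost without TrxR1/Gsr-null replicate 1 (adjusted p = 0.0928), replicate 2 (0.0797) or replicate 3 (0.0700) of that group, or WT replicate 3 (0.0575), and was kept without WT replicates 3 and 4 (adjusted p = 0.0439).

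Gys2, the liver glycogen synthase, fell. It had log2 values of 8.84, 8.73, 8.66 and 8.67 in TrxR1/Gsr-null livers, against 9.50, 9.15, 9.56 and 9.57 in WT livers. The 4 null livers lay within 0.18 log2 units of each other and all below the lowest WT liver, replicate 2. Means were 8.73 ± 0.08 in null and 9.44 ± 0.20 in WT (SD, n = 4 each), 1.65-fold lower (log2 difference -0.72 ± 0.17 SE, adjusted p = 0.0335). This call held in 9 of the 17 alternative settings. It was lost without any 1 of the 8 arrays except WT replicate 2 (adjusted p from 0.0628 to 0.0952) and without WT replicates 3 and 4 (adjusted p = 0.126).

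Pygl, the liver phosphorylase, was not called. It had 11.64, 11.64, 11.62 and 11.58 in TrxR1/Gsr-null livers, against 11.67, 11.84, 11.86 and 11.61 in WT livers, and the groups overlapped. Its log2 difference was -0.12, with a 95% interval from -0.47 to 0.22 (adjusted p = 0.696). So of the 4 measured members that act on glycogen itself, the branching enzyme and the targeting subunit were called higher and the synthase lower. Values of Ppp1r3b, the other glycogen-targeting subunit on the list, were not analysed here.

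Pck1, which commits oxaloacetate to glucose synthesis, fell at the probe set that carries its signal. The log2 values were 10.16, 9.72, 10.56 and 10.71 in TrxR1/Gsr-null livers, against 11.30, 11.99, 11.71 and 11.07 in WT livers. The groups did not overlap, and the nearest values were those of replicate 4 of each genotype. Means were 10.29 ± 0.44 in null and 11.52 ± 0.41 in WT (SD, n = 4 each), 2.35-fold lower (log2 difference -1.23 ± 0.28 SE, adjusted p = 0.0270). A dimmer Pck1 probe set, between 2.83 and 3.53 on all 8 arrays and so near the low-value limit, differed by 0.01 ± 0.21 SE (adjusted p = 0.987 over all probe sets tested), and with the mean of both probe sets the gene was not called (1.53-fold lower, adjusted p = 0.0695). The call was also lost without TrxR1/Gsr-null replicate 1 (adjusted p = 0.0788) or replicate 2 (0.0754), WT replicate 2 (0.0627), WT replicate 3 (0.0781), or WT replicates 3 and 4 (0.0558).

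G6pc, the last enzyme of glucose release, had the widest spread. It had 8.16, 8.58, 9.87 and 10.51 in TrxR1/Gsr-null livers, against 9.68, 10.69, 11.61 and 12.10 in WT livers. In each genotype replicates 3 and 4 stood above replicates 1 and 2, so that the groups overlapped, while each null liver was below the WT liver of its own number. Means were 9.28 ± 1.10 in null and 11.02 ± 1.07 in WT (SD, n = 4 each), a log2 difference of -1.74 ± 0.61 SE (3.33-fold) that was not called (adjusted p = 0.119). With the replicate number as a block G6pc was called lower (standard error 0.18, adjusted p = 0.00218). Across genes, deviations from the group means were correlated between livers of the same number (r of 0.21 to 0.37), and as much between null and WT livers of different numbers within replicates 1 and 2 (0.32 and 0.40) and within replicates 3 and 4 (0.20 and 0.21), so the numbers separate 1 and 2 from 3 and 4 rather than single pairs. Between same-numbered livers the log2 differences were -1.52, -2.10, -1.74 and -1.59. In splits chosen after seeing the data, with 4 arrays each, the difference was -1.81 within replicates 1 and 2 (adjusted p = 0.0376). Within replicates 3 and 4 it was -1.66 (adjusted p = 0.0622). The split follows the step seen in the values of G6pc itself, which narrows its spread in advance. These p-values therefore lend the difference no support. The difference was -0.90 (1.87-fold, adjusted p = 0.470) without WT replicates 3 and 4 alone, which unbalances the numbers. Without WT replicate 1 the gene was called (4.54-fold lower, adjusted p = 0.0471), as it was with array weights (adjusted p = 0.0413).

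**Figure D2:**
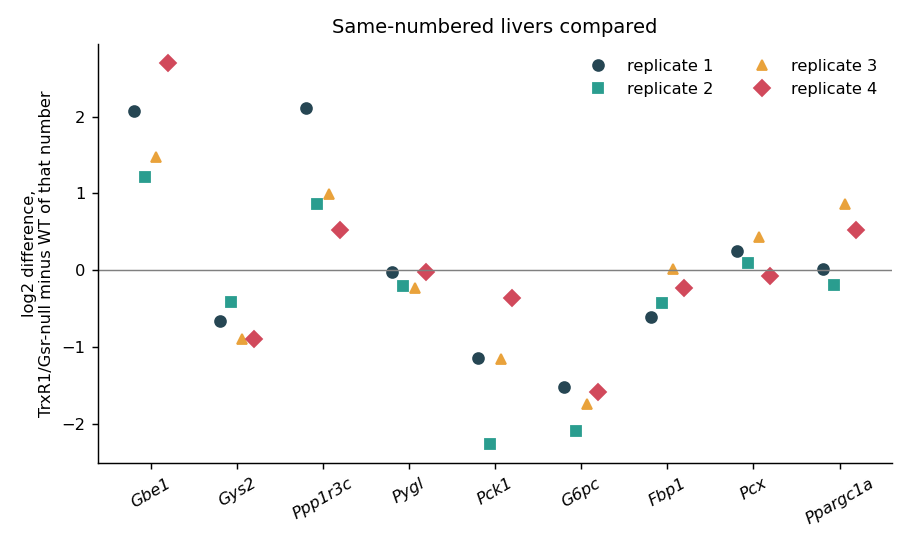
Log2 difference between the TrxR1/Gsr-null and the WT liver of the same replicate number for each of the 9 genes, with a symbol for each number and a line at 0. At all 4 numbers G6pc lies between -2.10 and -1.52, Gbe1 and Ppp1r3c are above 0, and Gys2, Pck1 and Pygl are below 0. The livers were matched by number only, and the data do not show pairing by single number.

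Fbp1 and Pcx were not called. Fbp1 had 12.17, 12.27, 12.75 and 12.64 in TrxR1/Gsr-null livers, against 12.77, 12.69, 12.74 and 12.88 in WT livers. Null replicates 1, 2 and 4 were below every WT liver and null replicate 3 lay among them, with a difference of -0.31 and a 95% interval from -0.73 to 0.10 (adjusted p = 0.357). Pcx had 10.84, 11.08, 11.23 and 11.20 in null livers, against 10.60, 10.99, 10.80 and 11.27 in WT livers, at the probe set designed as a gene target. Its difference was 0.17, with a 95% interval from -0.27 to 0.61 (adjusted p = 0.660). Pcx is also the target of 4 probe sets with a control ID, placed along the transcript. The one at the 3′ end had 10.41, 10.48, 10.62 and 10.40 in null livers, against 10.17, 10.36, 10.29 and 10.44 in WT livers. With control probe sets kept in the fit, none of the 4 was called (adjusted p from 0.335 to 0.883, all 4 differences above 0). The one at the 5′ end and another lay between 2.84 and 3.59 on all arrays, near the low-value limit of 3.03 for probe sets.

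Ppargc1a was not called at any of its 5 probe sets, and they differed in sign. The probe set used for the gene had 5.80, 6.18, 6.14 and 5.37 in TrxR1/Gsr-null livers, against 5.80, 6.38, 5.28 and 4.85 in WT livers. The groups overlapped, with the highest and the lowest value both in WT. The difference was 0.30, with a 95% interval from -0.43 to 1.02 (adjusted p = 0.642), and -0.21 without WT replicates 3 and 4. Across the 5 probe sets the differences ran from -0.10 to 0.30, with 3 above 0 and 2 below, and the other 4 had adjusted p-values from 0.722 to 0.984. The interval does not show that Ppargc1a was alike in both genotypes.

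**Figure D3:**
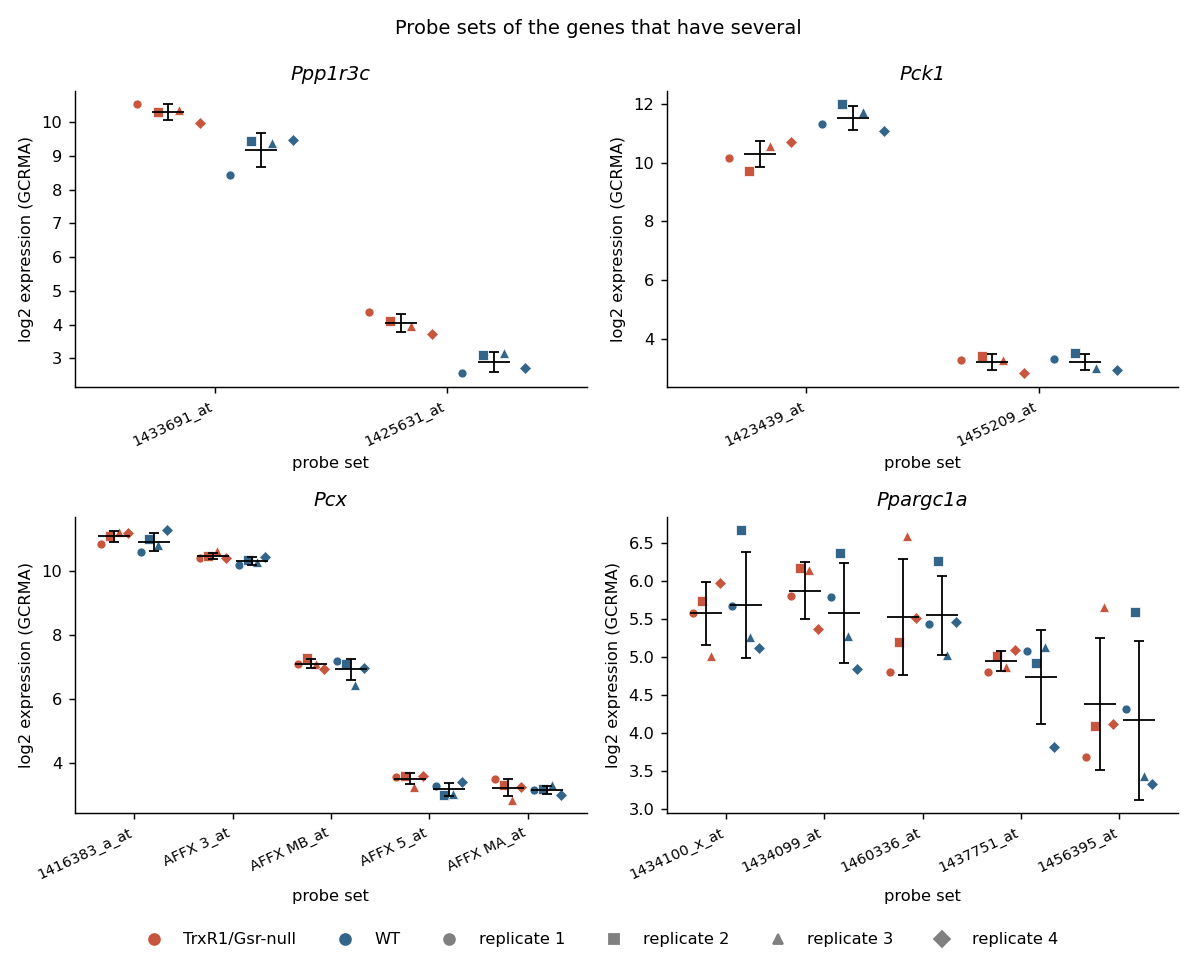
Log2 expression at each probe set of the 4 genes that have several, TrxR1/Gsr-null left and WT right at each probe set, with group means and 1 SD (n = 4); AFFX marks the Pcx probe sets with a control ID. Both Ppp1r3c probe sets separate the genotypes, though the dimmer averages 2.89 in WT, under the low-value limit of 3.03. The dim Pck1 probe set stays between 2.83 and 3.53 in all livers, and no Pcx or Ppargc1a probe set separates the genotypes.

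With the replicate block, 2 of the 9 genes were called higher and 3 lower, the third being G6pc, against 9.21% of all genes tested that were called in that fit. Gbe1 (adjusted p = 0.00719), Pck1 (0.0418), Ppp1r3c (0.0426) and Gys2 (0.0448) kept their calls. At the level of probe sets, 5 of the 15 members tested were called, those of Gbe1, Gys2, Pck1 and both of Ppp1r3c, against 5.50% of all probe sets tested. In WT the dimmer Ppp1r3c probe set averaged 2.89, under the low-value limit of 3.03, so it passed the filter through its null values. The 4 Pcx probe sets with a control ID did not enter the fit of probe sets.

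**Figure D4:**
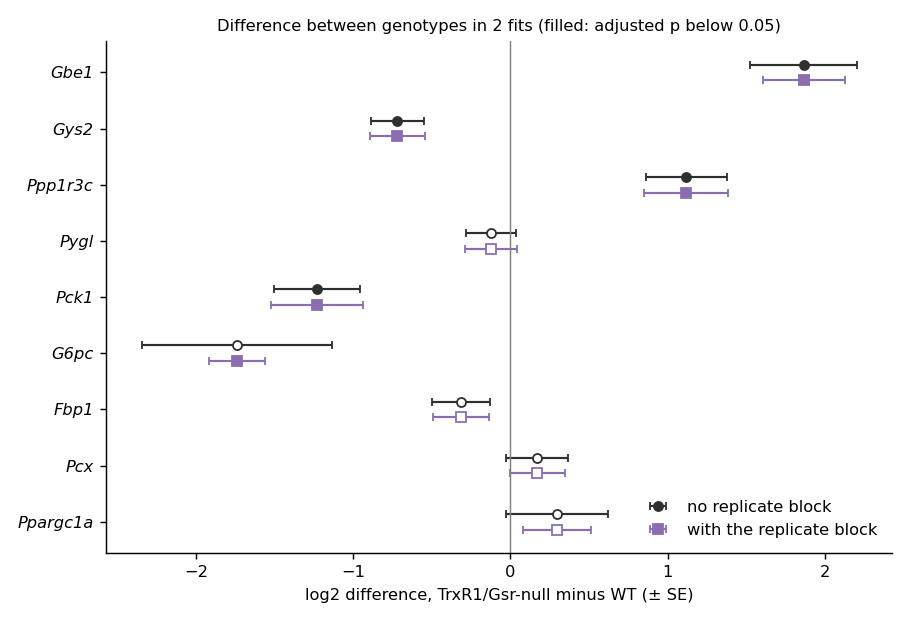
Log2 difference between TrxR1/Gsr-null and WT livers (± SE) for each measured gene, as a circle for the fit without the replicate block and as a square for the fit with it; filled symbols have an adjusted p below 0.05. The block leaves each difference as it is and narrows the error of G6pc from 0.61 to 0.18.

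The other genes of glycogen handling were examined as a list of 27, of which 22 were measured and 16 passed the filter on low values. Of these 2 were called higher and 0 lower (limma; 4 and 0 at an unadjusted p below 0.05), with a median log2 difference of 0.26 against 0.10 over all genes tested. The shares of all genes tested were 4.47% called higher and 2.15% called lower. Ugp2, which makes the UDP-glucose that glycogen synthase uses, had 11.93, 12.01, 12.29 and 12.42 in TrxR1/Gsr-null livers, against 11.08, 11.10, 11.27 and 11.48 in WT livers. All null livers lay above all WT livers, 1.90-fold (adjusted p = 0.0171). Leaving out TrxR1/Gsr-null replicate 4 ended this call (adjusted p = 0.0516). Phkb, the beta subunit of phosphorylase kinase, which activates phosphorylase, had 8.43, 8.42, 7.80 and 7.99 in null livers, against 7.26, 7.43, 6.60 and 5.82 in WT livers. It rose 2.61-fold (adjusted p = 0.0381), a call lost without any 1 of the 4 null arrays or of WT replicate 3 (highest adjusted p 0.110), without WT replicates 3 and 4 (0.103), and when all dim genes were kept (0.0561). The muscle-type synthase Gys1 averaged 3.53 in null and 3.52 in WT, near the low-value limit of 3.38 for genes.

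Among 27 other genes of gluconeogenesis and its carriers, 18 were tested, 1 was called lower and 0 higher (8 and 3 at an unadjusted p below 0.05). Over all genes tested, 2.15% were called lower and 4.47% higher. The median log2 difference of these 18 was -0.28. The gene called was Slc2a2, the glucose transporter GLUT2 through which glucose crosses the hepatocyte membrane. It had 10.50, 10.53, 11.17 and 10.71 in TrxR1/Gsr-null livers, against 11.32, 11.53, 11.56 and 11.86 in WT livers. All null values were below all WT values, 1.80-fold (adjusted p = 0.0381). Slc2a2 was no longer called when TrxR1/Gsr-null replicate 1, 2 or 4 or WT replicate 2, 3 or 4 was omitted (highest adjusted p 0.121), nor when WT replicates 3 and 4 were (0.146). Slc37a4, the carrier that brings glucose-6-phosphate to G6pc, had 7.17, 8.91, 9.65 and 9.38 in null livers, against 9.35, 9.80, 10.03 and 10.21 in WT livers, and was not called (adjusted p = 0.214). Its unadjusted limma p, 0.0479, ranked 1682 of the 7534 genes tested, so p-values below 0.05 were common over all genes. The unadjusted counts of 8 and 3 are therefore not comparable with the shares of 2.15% and 4.47%, which are of adjusted calls. Pck2, the mitochondrial carboxykinase, averaged 5.16 in null and 5.35 in WT and was not called either (adjusted p = 0.750). Fbp2, the muscle-type bisphosphatase, was too dim to be tested.

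Glycolytic enzymes run against gluconeogenesis, and of 18 listed, 13 were tested with 1 called lower and 0 higher (2 and 1 at an unadjusted p below 0.05). Over all genes tested, 2.15% were called lower and 4.47% higher. Pklr, the liver pyruvate kinase, had 6.47, 6.94, 6.99 and 6.88 in TrxR1/Gsr-null livers, against 7.30, 7.72, 7.98 and 8.15 in WT livers. The groups did not overlap, with a 1.96-fold fall (adjusted p = 0.0308), which was not called once TrxR1/Gsr-null replicate 1, 2 or 4, WT replicate 2, 3 or 4 (highest adjusted p 0.0915), or WT replicates 3 and 4 (0.136) were omitted. Gckr, a regulatory protein of hepatic glucose use, averaged 9.41 ± 0.38 in null and 10.22 ± 0.20 in WT (SD, n = 4 each). It was not called (adjusted p = 0.0583), but was called lower with the replicate block (adjusted p = 0.0400). Gckr was called in 7 of the 17 alternative settings, and in 0 of the 8 with 1 array left out. Pdk4, a kinase that shuts pyruvate out of the citric acid cycle in fasting, had 7.44, 6.37, 6.76 and 8.57 in null livers, against 5.78, 6.28, 5.23 and 4.42 in WT livers, and was not called (adjusted p = 0.0562). Without WT replicate 2 Pdk4 was called higher (4.40-fold, adjusted p = 0.0441).

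Of 23 regulators of gluconeogenic transcription 20 were tested, and 1 was called lower and 0 higher (5 and 1 at an unadjusted p below 0.05). Over all genes tested, 2.15% were called lower and 4.47% higher. The median log2 difference of the regulators was -0.32. Irs2, which carries the insulin signal from its receptor, had values of 3.21 to 4.44 in TrxR1/Gsr-null livers, against 4.37 to 5.23 in WT livers. The groups overlapped at 1 liver, null replicate 4, and 2 null values were below the low-value limit of 3.38, so the 2.37-fold difference (adjusted p = 0.0356) rests on values near background. The call needed TrxR1/Gsr-null replicates 1, 2 and 3 and WT replicates 1, 3 and 4 (highest adjusted p 0.108 with 1 of them omitted, 0.161 without WT replicates 3 and 4), and the filter on dim genes (0.0513 without it). Crtc2, the coactivator of CREB that glucagon activates, averaged 4.28 in null and 4.66 in WT and was not called (adjusted p = 0.228).

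**Figure D5:**
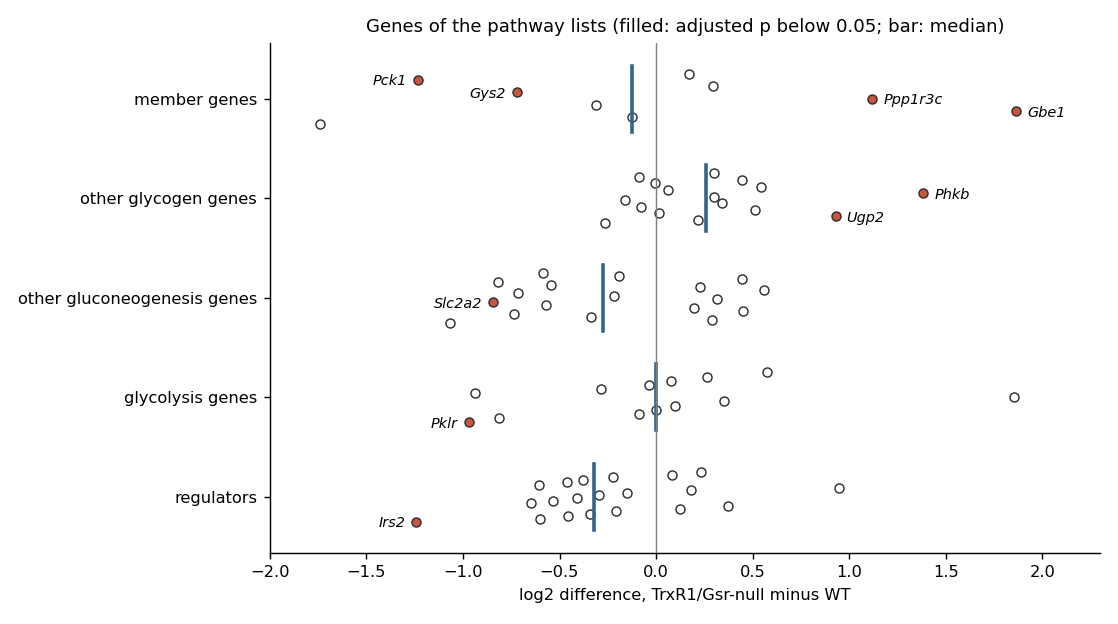
Log2 difference between TrxR1/Gsr-null and WT livers for each tested gene of the members and of 4 related lists, with filled and named circles for adjusted p below 0.05 and a bar at each list's median. The other glycogen genes have a median of 0.26 with Ugp2 and Phkb called higher, and the medians of the other gluconeogenesis genes and the regulators are -0.28 and -0.32.

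Markers of hepatocytes and of other liver cells were read on the same arrays. The summed linear signal of the 9 hepatocyte markers was 60497 to 83963 in TrxR1/Gsr-null livers, against 85972 to 101239 in WT livers. These ranges do not overlap, 8 of the 9 log2 differences were negative with a median of -0.37, and 0 of 9 were called by limma (1 lower at an unadjusted p below 0.05). This moved in the same direction as Gys2, Pck1 and G6pc, and its part in their differences was not tested. The summed signal of 10 Kupffer cell markers was 6046 to 8434 in null, against 6946 to 11422 in WT, and that of 8 endothelial markers 1715 to 2217 in null, against 1910 to 2314 in WT, with 0 called in either list (3 and 2 lower at an unadjusted p below 0.05). With the replicate block, Csf1r among the Kupffer cell markers (adjusted p = 0.0308) and Stab2 among the endothelial ones (0.0479) were called lower. Of 7 stellate cell markers tested, 1 was called lower, Ecm1, with summed signals of all 8 measured at 4809 to 6450 in null and 6179 to 7700 in WT. Over all genes tested, 2.15% were called lower and 4.47% higher. Of 2 bile duct markers tested, 1, Epcam, was called higher, with 4.03, 4.11, 3.36 and 3.98 in null livers, against 2.89, 3.31, 3.01 and 2.51 in WT livers. All WT values of Epcam and that of null replicate 3 were below the low-value limit of 3.38, so this call rests on values near background. The other, Sox9, had a log2 difference of -0.19 (adjusted p = 0.743), and the summed signal of the bile duct markers measured was 37.7 to 49.0 in null, against 38.9 to 56.5 in WT. All 6 skeletal muscle markers were below the low-value limit on every array, and of lymphocyte and erythroid markers 0 of 2 tested in each list were called (0 of each at an unadjusted p below 0.05).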

How the data were processed

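Liver RNA of 8 mice was measured on 1 array each. The deposited values are log2 expression per probe set, made by the authors with GCRMA per the submitters' processing notes (a background, quantile and summary method; version not given in the sources used here). That they are log2 rests on their range, 0.53 to 14.6. GCRMA compresses values near background.

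Probe sets paired with 1 symbol were named, with symbols updated through the RefSeq table of GRCm38.p6 (20364 identifiers matched). The 64 control probe sets were left out. For a gene with several probe sets, the brightest on average was used, and _x_at sets only where no other kind existed. Genes in the lowest 40% by mean (log2 up to 3.38) were dropped, except where 4 or more arrays were above that value, which left 7534; the same filter left 13776 probe sets. All 9 measured members passed. The genotypes were tested by lmFit and eBayes of limma 3.58.1 (R 4.3.3, two-sided, Benjamini-Hochberg). The fit was tested on simulated data with known changes. Alternatives changed the normalization, the filter, the choice of probe set, the array weights, the block and the arrays used.

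Replicate numbers come from the sample titles. Across genes, deviations from the group means correlated at 0.21 to 0.37 in the 4 pairs of 1 number. The blocked value is printed where it differs in its call. Livers of different numbers correlated as highly within replicates 1 and 2 and within 3 and 4 (0.20 to 0.40), so the check does not show pairing by single number. The labels name no batch, and nothing beyond the word biological says how the animals were related. The p-values weigh the difference of group means only against the spread within the groups of these samples, and take the livers as independent. The highest correlation between 2 arrays was 0.994.

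The members, lists and tests were chosen with earlier results of these data known. The rule for named genes took the members, up to 3 called genes per direction of each list, the first 2 listed where fewer than 2 were called (not all of these had a tested value, Creb1 for example being too dim), Txnrd1 and Gsr, and the 3 genes most correlated with each called member. Gys1, Slc37a4, Pdk4, Ecm1, Epcam, Sox9, Csf1r, Stab2, Clock, Ddit4, Fgf21, Igfbp1, Angptl4, Fasn and Txnip were named after their values were seen.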

Additional observations from a re-analysis of the deposited data

Results flagged for a closer look

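Of 38 groups of 4 values, 2 for each of the 19 member probe sets, 4 held a value that stood far from the other 3 by Dixon's 95% criterion, where chance flags about 1 in 20 groups. WT replicate 1 was low for Ppp1r3c (8.43, with the next value at 9.38), and without it the rise of Ppp1r3c was 1.83-fold and still called (adjusted p = 0.0327). WT replicate 2 was low for Gys2 (9.15, below all 3 others), and without it the fall of Gys2 was 1.76-fold (adjusted p = 0.0357). TrxR1/Gsr-null replicate 3 was low at the 5′ control probe set of Pcx (3.24, next 3.55). WT replicate 4 was low at a Ppargc1a probe set not used for the gene (3.82, next 4.92).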

How the results depend on the processing

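Gbe1 was called in every setting tried, while the calls of Ppp1r3c, Pck1 and Gys2 were each lost in some, as given beside them. With 1 array left out, 1 to 2 members were called higher and 0 to 2 lower, 2 to 4 member probe sets were called, and over all genes 196 to 387 were called higher and 75 to 134 lower. At an unadjusted limma p below 0.05, 2 to 3 members were lower in each of these. Without WT replicates 3 and 4, 0 members were called lower (2 at an unadjusted p), 2 probe sets were called, and 187 genes were higher. The mean of all probe sets left 1 member called lower, with the dim Pck1 probe set averaged in. Array weights gave 578 genes higher and 428 lower. Further quantile normalization gave 272 lower, so that 53.6% of calls were higher in place of 67.5%, and it moved the median difference of all genes from 0.10 to -0.01 without changing a member's call. The replicate block changed no member's call other than that of G6pc. In splits chosen after seeing the data, among them the values of G6pc, replicates 1 and 2 alone called 1 member higher and 2 lower (Pck1 and G6pc, not Gys2). In that setting 266 genes were called higher and 236 lower over all genes. Replicates 3 and 4 alone called 1 member higher, 0 lower (3 at an unadjusted p) and 1 probe set, with 162 genes higher and 30 lower over all genes. Each split had 4 arrays. Reversed signs were all of uncalled results. Ppargc1a was -0.21 without WT replicates 3 and 4, -0.024 with array weights and -0.10 in replicates 1 and 2, and Pck2 was 0.31 in replicates 3 and 4. The dim Pck1 probe set was -0.057 with centring, -0.22 without WT replicates 3 and 4, -0.082 with array weights, -0.065 in replicates 1 and 2, and -0.079 to 0.14 with 1 array left out. Of the Ppargc1a probe sets, that ranked second by mean level was 0.30 in replicates 3 and 4 and -0.29 to 0.22 with 1 array left out, the fourth was -0.050 without WT replicates 3 and 4, -0.087 in replicates 1 and 2 and -0.10 to 0.34 with 1 left out, the fifth was -0.57 without WT replicates 3 and 4, -0.76 with array weights, -1.07 in replicates 1 and 2 and -0.20 to 0.69 with 1 left out, and the third was 0.81 in replicates 3 and 4 and -0.38 to 0.22 with 1 left out. The causes of these shifts were not tested.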

Other observations

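Genes that move with fasting and feeding and genes of the circadian clock were also listed, since genes of liver glucose supply are known to follow both. Of 12 fasting and feeding genes tested, 6 were called lower and 0 higher in TrxR1/Gsr-null liver (limma; 7 and 3 at an unadjusted p below 0.05). Over all genes tested, 2.15% were called lower and 4.47% higher. The 12 log2 differences had a median of -1.03, with 8 negative and 4 positive. Among the positive, Pdk4 (3.61-fold, adjusted p = 0.0562) and Fgf21 (9.11-fold, adjusted p = 0.0834) were not called. Fgf21 averaged 2.46 in WT, below the low-value limit of 3.38. The list pools genes of both states, so its count and median give no direction for either. The count called lower was 3 without TrxR1/Gsr-null replicate 1 or 2 or WT replicate 3 or 4, and 1 without WT replicates 3 and 4. Over all genes tested, 75, 81, 89, 126 and 138 were called lower in these settings, in that order, against 162 in the main fit. With the replicate block the fasting and feeding count was 7, Igfbp1 being added (adjusted p = 0.0364), and 1 gene, Ddit4, was called higher (0.0459). In that fit 9.21% of all genes tested were called. Ddit4 averaged 4.04 in null and 2.98 in WT, the latter under the low-value limit of 3.38, so its call rests on values near background. The steepest call was Lpin1, a phosphatidate phosphatase that also coactivates transcription with PGC-1 alpha, with 5.23, 7.36, 6.32 and 7.38 in null livers, against 8.75, 9.30, 8.86 and 9.60 in WT livers. Scd1 (2.19-fold, adjusted p = 0.00667) and Srebf1 (2.52-fold, adjusted p = 0.0120), which serve fatty acid synthesis, were among the others called lower. Angptl4 (4.08-fold, adjusted p = 0.0223), Fasn (2.89-fold, 0.0452) and Txnip (1.89-fold, 0.0369) were the remaining genes called lower. Of 14 clock genes tested, 3 were called lower and 0 higher (5 and 1 at an unadjusted p below 0.05). The shares of all genes tested were 2.15% called lower and 4.47% called higher. Bhlhe40, a repressor that binds E-boxes, averaged 7.24 ± 0.89 in null and 9.78 ± 0.67 in WT (SD, n = 4 each), 5.83-fold lower (adjusted p = 0.00889), with no overlap. Tef and Dbp, clock-driven factors, were the others (2.83-fold and 4.44-fold lower, adjusted p = 0.0296 and 0.0341), and Dbp was not called with the replicate block (adjusted p = 0.0591). In that fit Clock was called higher (log2 difference 1.00, adjusted p = 0.0299, against 0.0688 without the block). The clock count called lower was 1 without TrxR1/Gsr-null replicate 1 or 3, without WT replicate 3, or without WT replicates 3 and 4, and 6 with array weights. Over all genes tested, the count called lower was 75, 134, 89, 138 and 428 in these settings, in that order, against 162 in the main fit. The part of feeding state or time of day in the members' differences was not tested.

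The genes whose 8 log2 values most resembled those of a called member were read by Pearson's r over the 8 arrays, as a description in which the difference between genotypes takes part. For Gbe1 they were Tmem33 (r = 0.998), Slc2a1, the glucose transporter GLUT1 (r = 0.991), and Rcor1 (r = 0.985). Slc2a1 averaged 9.21 in null and 7.18 in WT and rose 4.09-fold (adjusted p = 0.0102). For Gys2 they were Pcdh1, Ppm1a and Acin1 (r = 0.973 to 0.968), and for Ppp1r3c Dennd2d, Lonp2 and Ndufaf4 (r = 0.971 to 0.941). For Pck1 they were Gpx1, Klf15 and Cd82 (r = 0.971 to 0.932). Klf15, a factor known to regulate gluconeogenic genes in fasting, averaged 8.92 in null and 9.38 in WT and was not called (adjusted p = 0.173).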
